A study of Homo sapiens with 6 samples.

Results

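NRF2, its inhibitor KEAP1 and 7 antioxidant genes that NRF2 is known to activate were followed in SW480 cells, an established human colorectal cancer line, after transfection of an siRNA against ITGB4. The 9 genes (NFE2L2, which encodes NRF2, KEAP1, NQO1, GCLC, GCLM, TXNRD1, SRXN1, HMOX1 and SLC7A11) were chosen by name, and all 9 were found among the 58735 genes of the deposited expression table. The study holds 6 polyA-selected RNA-seq libraries of SW480 cells labelled wild type, 3 with a negative control siRNA and 3 with the ITGB4 siRNA. The design calls the 3 libraries of a group biological replicates. All come from 1 cell line, and the siRNA sequence and the time after transfection are not given in the sources used here. The title of the series names integrin β4, ezrin and the Wnt/β-catenin pathway. The question asked here is whether the NRF2 genes differed between the siRNAs.

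NRF2 is a basic leucine zipper transcription factor that is held at low abundance in unstressed cells. KEAP1, a cysteine-rich adaptor of the CUL3 ubiquitin ligase, binds NRF2 and directs it to the proteasome. When oxidants or electrophiles modify cysteines of KEAP1, NRF2 escapes degradation, pairs with a small MAF protein and binds antioxidant response elements near genes for glutathione synthesis, thioredoxin reduction, quinone detoxification and haem breakdown. Much of this control acts on the NRF2 protein, so the NFE2L2 transcript is not a measure of NRF2 activity, and the transcripts of its targets are the usual readout.

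In each of the 9 genes the groups overlapped, and none of the 9 was called changed between ITGB4 siRNA and control siRNA. Their log2 fold changes lay between -0.18 and 0.08 with a median of -0.02, beside a median of 0.00 over all 12871 genes tested. TXNRD1, thioredoxin reductase 1, came nearest to a difference, with a mean of 33.6 ± 1.75 FPKM under control siRNA and 30.7 ± 1.27 under ITGB4 siRNA (SD, n = 3 each; limma adjusted p = 0.88). FPKM, the unit of every level here, counts fragments relative to the length of the gene and to the size of the library. In these bulk libraries fewer expressing cells and less RNA per cell cannot be told apart.

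To show where the antioxidant response element can be read in these genes, their RefSeq promoter windows (GRCh38.p14, from 250 bases before a start site to 50 after it) were searched on both strands for its 9-base core TGACNNNGC. The table holds 10 windows for 7 of the 9 genes, all but HMOX1 and SLC7A11. The core was found in 4 windows, of GCLM, KEAP1 and TXNRD1, and in 13.3% of all 35116 windows. The stricter form TGACTCAGC, a case of the same core, was in none of the 10 windows and in 0.561% of all windows. Bases outside these windows were not searched, so an absent match does not mean that a gene lacks the element. Each stretch below is written 5′ to 3′ on the strand of its gene, with the 9 bases of the core in capitals. Where the core lies on the opposite strand, the capitals show its reverse complement.
GCLM, chr1:93909446-93909474, minus strand, core on the opposite strand from 34 bases upstream of the start site: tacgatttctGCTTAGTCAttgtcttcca
KEAP1, chr19:10502784-10502812, minus strand, core on the opposite strand from 31 bases upstream: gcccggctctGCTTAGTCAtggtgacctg
KEAP1, chr19:10502807-10502835, minus strand, core on the gene's own strand from 54 bases upstream: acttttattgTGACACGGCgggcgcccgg
TXNRD1, chr12:104215670-104215698, plus strand, core on the gene's own strand from 99 bases upstream: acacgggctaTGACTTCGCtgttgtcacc
TXNRD1, chr12:104215761-104215789, plus strand, core on the opposite strand from 8 bases upstream: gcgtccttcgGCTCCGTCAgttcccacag
TXNRD1, chr12:104286920-104286948, plus strand, core on the opposite strand from 102 bases upstream of another start site of the gene: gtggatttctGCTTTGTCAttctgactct

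The same 9 bases, GCTTAGTCA, stand in capitals in GCLM and in the first KEAP1 stretch. Both KEAP1 cores and the last TXNRD1 core lie wholly within an exon of some transcript in GENCODE 29, and the upstream TXNRD1 core at 104215680 to 104215688 lies in none. A match describes the letters of the window and says nothing of binding in these cells.

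The libraries held 13715266 to 15496274 reads, recovered from FPKM and gene length. ITGB4, the target of the siRNA, was at 74.3, 63.8 and 69.8 FPKM in the control libraries and at 41.1, 38.1 and 37.9 in the ITGB4 siRNA libraries. This is a log2 fold change of -0.81 (SE 0.0658, limma adjusted p = 0.0148), with no overlap of the groups. A partial depletion of the ITGB4 transcript thus underlies every comparison below, and these libraries do not measure the protein. The adjusted p of ITGB4 rose above 0.05 when ITGB4 siRNA replicate 1, 2 or 3 or control replicate 3 was left out (0.0699 to 0.137), with its log2 fold change between -0.85 and -0.79. Of 8 colorectal epithelial markers, 5 averaged at least 1 FPKM, among them KRT8 (452 to 527 FPKM), EPCAM (94.8 to 100.4) and CDX2 (18.9 to 24.9). The other 3, CDX1, KRT20 and VIL1, averaged less, and CDX1 and KRT20 stayed at or below 0.11 FPKM. Of 6 fibroblast markers DCN, LUM and COL1A2 were at 0 in all 6 libraries, FBLN1 was at 1.05 to 1.40 FPKM and COL1A1 at 0.41 to 0.81, and their sum was 1.52 to 2.24 FPKM in the controls and 1.54 to 1.72 after ITGB4 siRNA. Of 5 endothelial markers CDH5 and KDR were at 0 in all 6 libraries and ESAM was at 0.73 to 1.18 FPKM, with sums of 1.12 to 1.32 and 0.889 to 1.254 FPKM. The 5 leukocyte markers, of which CD74 (1.82 to 2.43 FPKM) alone averaged at least 1 FPKM, summed to 2.43 to 2.47 FPKM in the controls and 2.02 to 2.53 after ITGB4 siRNA. The part of these transcripts in the results was not tested. Control replicate 1 stood apart from the other controls. It differed by a mean chi-square per gene of 12.1 from control replicate 2 and 5.83 from control replicate 3, against 3.49 between replicates 2 and 3. ITGB4 siRNA replicate 1 was less apart, at 3.53 from both others of its group, against 2.28 between those. Control replicate 1 was nearer to ITGB4 siRNA replicate 1 than to either other control. ITGB4 siRNA replicate 1 was nearer to both others of its group than to any control. ITGB4 siRNA replicates 2 and 3 were about as near to control replicate 3 as to ITGB4 siRNA replicate 1. By this measure, libraries of the same group were thus not always the nearest to each other. In 45.3% of the 12871 tested genes replicate 1 was the lowest library of both groups or the highest of both. This share was not compared with that expected if the numbers meant nothing. Results are also given without replicate 1 of both groups.

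Genes with a mean of at least 1 FPKM over the 6 libraries were tested, and all 9 genes passed this filter. Limma, a linear model with moderated variances fitted to log2(FPKM + 1), called a gene changed at a Benjamini-Hochberg adjusted p under 0.05. It called 0 of the 9, and 0.0466% of all genes tested. At an unadjusted p under 0.05 the count was again 0 of 9, beside 5.83% of all genes. Limma-voom on the recovered reads called 0 of the 9 and 0.202% of all genes, with 0 of the 9 at an unadjusted p under 0.05. The groups overlapped in every one of the 9 genes, while they were apart in 11.1% of all genes tested. Of the 9 log2 fold changes 5 lay below 0, as did 51.5% of those of all genes.

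**Figure D1:**
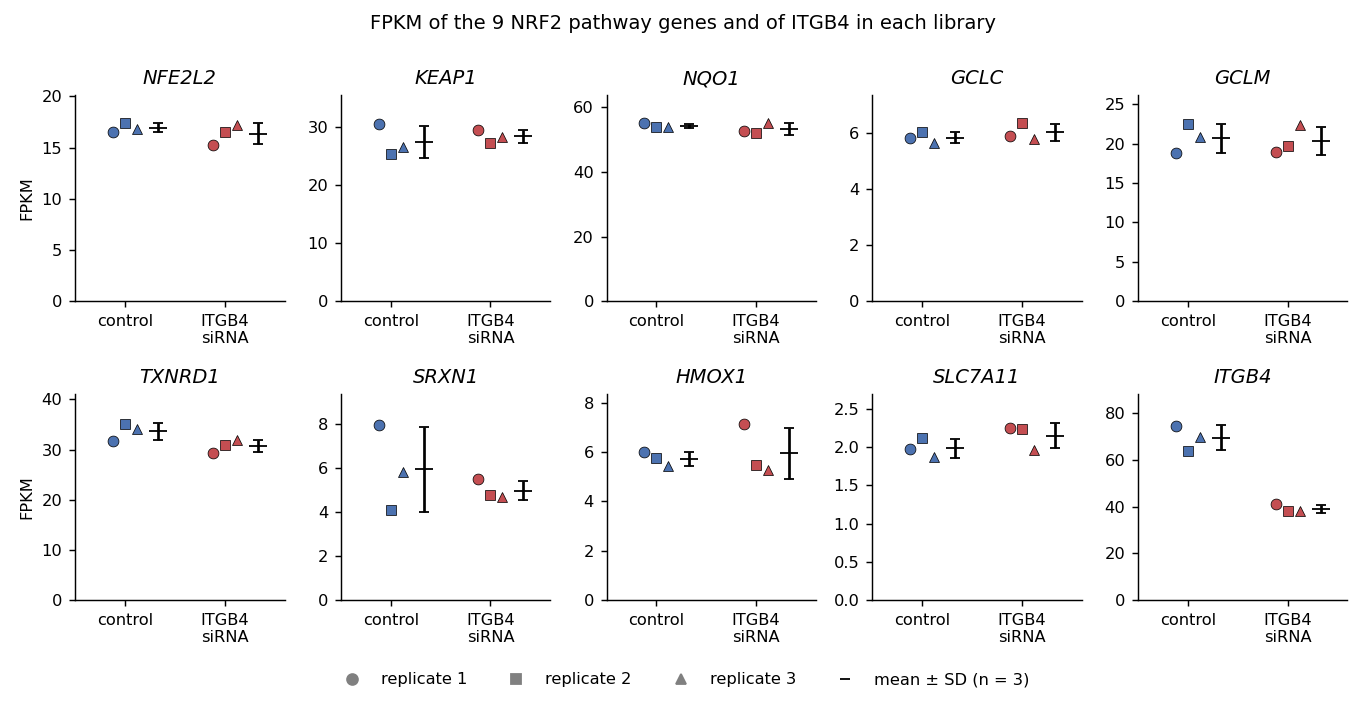
FPKM (y axis, from 0) of each of the 9 genes and of ITGB4 in the 3 control siRNA libraries (blue) and the 3 ITGB4 siRNA libraries (red), with the symbol giving the replicate number and the black bar the mean ± SD (n = 3). The groups are apart in ITGB4 (63.8 to 74.3 against 37.9 to 41.1 FPKM) and overlap in the 9 other genes.

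The levels of the 9 genes spanned from 53.8 FPKM for NQO1 to 2.07 for SLC7A11 as means of 6 libraries. NQO1 ranked at the 94.4 percentile of the tested genes, TXNRD1 (32.2 FPKM) at the 89.3 percentile, KEAP1 (27.99) at 87.1, GCLM (20.5) at 81.6 and NFE2L2 (16.6) at 77.0. GCLC (5.93), HMOX1 (5.85) and SRXN1 (5.45) lay near the middle of the table, at percentiles 48.3, 47.9 and 45.8, and SLC7A11 at 18.5. Libraries of neighbouring genes in this order overlapped for TXNRD1 and KEAP1 and for GCLC, HMOX1 and SRXN1, so those ranks are not resolved. The other neighbours did not overlap. The gene length that divides the reads equals the bases covered by any exon of the gene in GENCODE 29 for all 9 genes, from 2405 bases for HMOX1 to 9645 for SLC7A11, and the order depends on it.

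NFE2L2 (ENSG00000116044; GRCh38 chromosome 2, 177227595 to 177392697, minus strand) was measured at 16.6, 17.4 and 16.8 FPKM in control replicates 1 to 3. With ITGB4 siRNA it was at 15.2, 16.5 and 17.2 FPKM. The lowest value belonged to ITGB4 siRNA replicate 1, while replicate 2 lay just under the lowest control and replicate 3 inside the control range. The log2 fold change was -0.05 (SE 0.0568, 95% interval -0.18 to 0.09, limma adjusted p = 0.998), an interval that runs from -12.0% to 6.13% on the FPKM + 1 scale. Each library holds 1263 to 1606 NFE2L2 reads. AGPS, a gene of ether lipid synthesis on the opposite strand, shares 54 exon bases with NFE2L2 and the antisense RNA AC079305.1 shares 190, out of 5979. AGPS averaged 13.4 FPKM and AC079305.1 0.402, and strandedness is not given in the sources used here. The opposite-strand genes AC019080.2, AC019080.3 and AC019080.4 share 0 exon bases with it. On the same strand AC019080.1 shares 1054 exon bases and was listed at 0.0631 FPKM.

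KEAP1 (ENSG00000079999; chromosome 19, 10486120 to 10503741, minus strand) was at 30.6, 25.4 and 26.7 FPKM in the control libraries. The ITGB4 siRNA libraries held 29.5, 27.4 and 28.4 FPKM, all within the range of the controls. The log2 fold change was 0.05 (SE 0.0747, 95% interval -0.13 to 0.22, limma adjusted p = 0.998), and it was -0.01 without control replicate 2. The FPKM of NFE2L2 divided by that of KEAP1, the transcripts of the factor and of its inhibitor, was 0.54, 0.686 and 0.631 with control siRNA. With ITGB4 siRNA the ratio was 0.516, 0.604 and 0.607 (means 0.619 ± 0.0737 and 0.576 ± 0.0518, SD, n = 3; exact two-sided permutation p = 0.4, where 0.1 is the smallest p that 3 against 3 allow). Replicate 1 had the lowest ratio in both groups.

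SLC7A11 encodes the cystine transporter subunit xCT, which supplies the cysteine for glutathione. It was the scarcest of the 9 transcripts, with 1.97, 2.11 and 1.87 FPKM in the controls and 2.25, 2.24 and 1.96 in the ITGB4 siRNA libraries. The group means differed by 8.35%, and ITGB4 siRNA replicate 3 lay inside the control range. Its log2 fold change was 0.08 (SE 0.0814, 95% interval -0.12 to 0.27, limma adjusted p = 0.998), a scale that understates changes of a gene this low, and 0.12 by limma-voom on 275 to 330 reads per library. SLC7A11 (ENSG00000151012; chromosome 4, 138164097 to 138242349, minus strand) shares 865 exon bases with its antisense RNA SLC7A11-AS1, which averaged 0.0421 FPKM.

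Glutamate-cysteine ligase, the rate-limiting enzyme of glutathione synthesis, is built from the catalytic subunit GCLC and the modifier subunit GCLM. GCLC (ENSG00000001084; chromosome 6, 53497341 to 53616970, minus strand) had 5.84, 6.03 and 5.63 FPKM in the controls and 5.91, 6.36 and 5.79 in the ITGB4 siRNA libraries. Replicate 2 was the highest library of each group. Its log2 fold change was 0.04 (95% interval -0.10 to 0.17). AL033397.1 on the same strand shares 529 exon bases with GCLC and AL033397.2 on the opposite strand 7, and they averaged 0.0139 and 0.321 FPKM. GCLM (ENSG00000023909; chromosome 1, 93885205 to 93909456, minus strand) had 18.8, 22.4 and 20.8 FPKM in the controls and 18.9, 19.7 and 22.4 in the ITGB4 siRNA libraries. The groups covered nearly the same range, with replicate 1 the lowest in both. Its log2 fold change was -0.02 (95% interval -0.23 to 0.18) and turned to 0.03 without control replicate 2 and to 0.02 without ITGB4 siRNA replicate 1. For both subunits the limma adjusted p was 0.998. Within a library the FPKM of GCLM was 3.10 to 3.86 times that of GCLC, with means of 3.55 ± 0.29 and 3.39 ± 0.413 (SD, n = 3; exact two-sided permutation p = 0.8).

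TXNRD1 (ENSG00000198431; chromosome 12, 104215779 to 104350305, plus strand) encodes the selenoprotein that returns cytosolic thioredoxin to its reduced form with NADPH. Control replicates 1 to 3 held 31.7, 35.1 and 34.1 FPKM, and ITGB4 siRNA replicates 1 to 3 held 29.4, 30.9 and 31.9 FPKM. ITGB4 siRNA replicate 3 lay just above control replicate 1, and all other ITGB4 siRNA libraries lay below all controls. The log2 fold change was -0.13 (SE 0.0554, 95% interval -0.26 to 0.01), with an unadjusted limma p of 0.0586 and an exact permutation p of 0.2. Without replicate 1 of both groups, an alternative chosen after seeing the data, it was -0.14 (95% interval -0.25 to -0.02) with a limma adjusted p of 0.541. The pseudogene RPL18AP3 lies in an intron of TXNRD1 on the same strand and was at 132 FPKM. It shares 0 exon bases with TXNRD1. The antisense RNA AC089983.1 also shares 0 exon bases and averaged 0.381 FPKM.

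SRXN1 (ENSG00000271303; chromosome 20, 646615 to 653370, minus strand) encodes sulfiredoxin, which repairs over-oxidised peroxiredoxins. It varied most among the 9 genes, with 7.92, 4.08 and 5.79 FPKM in the control libraries, from 316, 163 and 238 reads. The ITGB4 siRNA libraries held 5.49, 4.76 and 4.67 FPKM and lay inside the control range. The residual SD of SRXN1 on the log2 scale was 0.297, at the 92.9 percentile of all tested genes, while that of NQO1 was at the 4.66 percentile. Its log2 fold change, -0.18 (SE 0.191, 95% interval -0.63 to 0.27, limma adjusted p = 0.998), rested on control replicate 1 and was 0.02 without that library. On the FPKM + 1 scale the interval ran from -35.5% to 20.9%, so a moderate change of SRXN1 was not detectable here. AL121758.1, a protein-coding gene model on the same strand, shares 2292 of the 2698 exon bases of SRXN1. It was listed at 0.0891 FPKM, and how reads of the shared bases were assigned is not given in the sources used here.

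NQO1 (ENSG00000181019; chromosome 16, 69706996 to 69726951, minus strand) encodes a quinone reductase and is the most widely used NRF2 marker gene. It was the most abundant and least variable of the 9, at 54.98, 53.98 and 53.8 FPKM with control siRNA. With ITGB4 siRNA it was at 52.5, 52.1 and 55.2 FPKM, and replicate 3 of this group was the highest of all 6 libraries. Its log2 fold change of -0.03 (limma adjusted p = 0.998) had the narrowest interval of the 9 genes, -0.12 to 0.07. On the FPKM + 1 scale this is -8.27% to 5.02%. A change of NQO1 larger than these bounds is outside the interval. The antisense RNA AC092115.2 shares 575 exon bases with NQO1 and was listed at 0 in all libraries.

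HMOX1 (ENSG00000100292; chromosome 22, 35380361 to 35394214, plus strand) encodes haem oxygenase 1, which opens the haem ring and whose gene is repressed by BACH1. The control libraries held 5.99, 5.78 and 5.43 FPKM, and the ITGB4 siRNA libraries 7.14, 5.47 and 5.26. Replicate 1 was the highest of each group, and ITGB4 siRNA replicate 1 lay above all others. The log2 fold change was 0.04 (SE 0.106, 95% interval -0.21 to 0.29, limma adjusted p = 0.998). It turned to -0.08 without ITGB4 siRNA replicate 1 and to -0.05 without replicate 1 of both groups, so the sign of HMOX1 was set by that library.

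**Figure D2:**
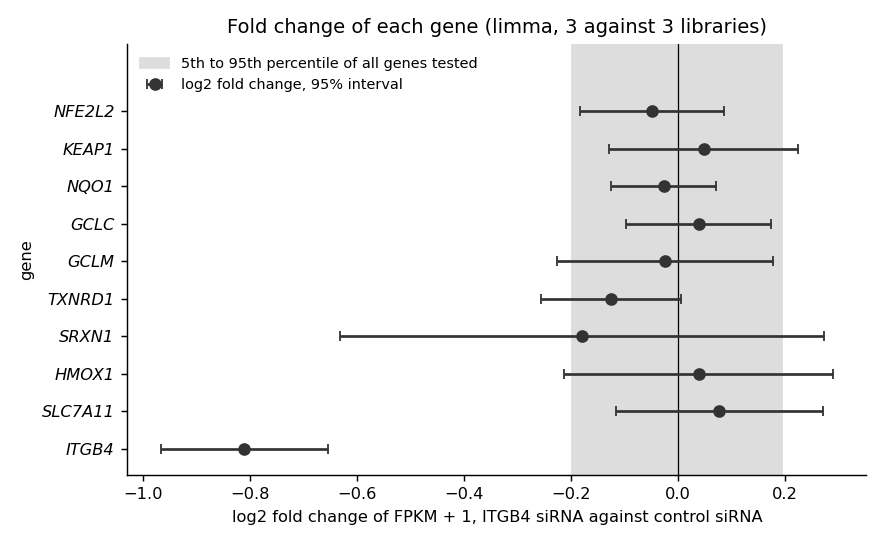
Log2 fold change of FPKM + 1 (x axis, ITGB4 siRNA against control siRNA, 3 libraries each) of the 9 genes and ITGB4, as points with 95% intervals from limma. All 9 intervals include 0 and all 9 points lie between the 5th and the 95th percentile of all genes tested (grey, -0.20 to 0.20), while ITGB4 lies at -0.81.

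The 9 genes did not move as a block across the libraries. NFE2L2, GCLM and TXNRD1 were lowest in replicate 1 of both groups, and KEAP1, HMOX1 and SRXN1 were highest there, so 6 of 9 followed replicate 1 in 1 direction or the other, beside the 45.3% of all genes given above. These opposite directions, NFE2L2 lowest and KEAP1 highest of the group, were seen in the same 2 libraries. They are ranks within a group. Against its mean of the 6 libraries NFE2L2 stood at -0.0052 log2 units in control replicate 1 and at -0.1171 in ITGB4 siRNA replicate 1. Without replicate 1 of both groups the log2 fold changes of the 9 genes ran from -0.14 (TXNRD1) to 0.10 (KEAP1, 95% interval -0.03 to 0.22), the limma adjusted p from 0.541 to 0.984, and SRXN1 was at -0.04.

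**Figure D3:**
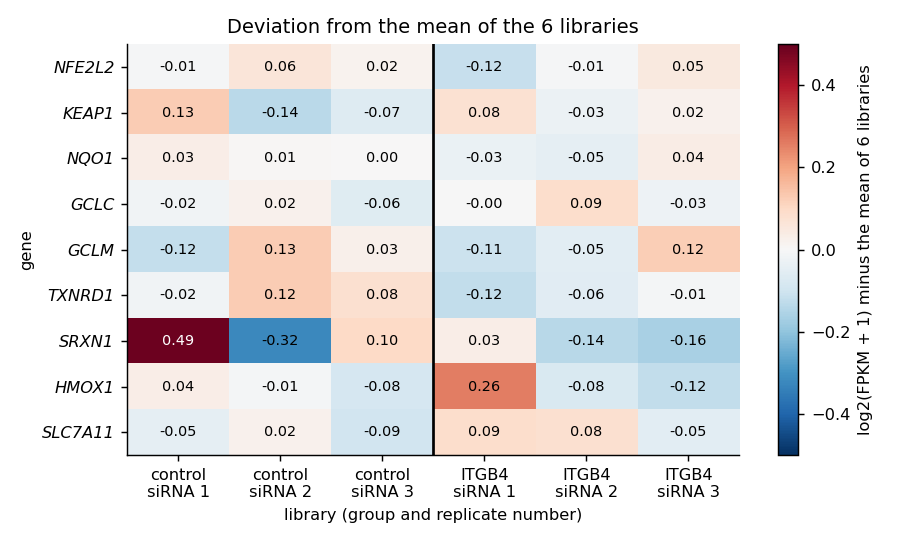
Log2(FPKM + 1) of each of the 9 genes (rows) in each library (columns) minus the mean of the 6 libraries, with the value printed in each cell and the black line parting the groups. The strongest cells are SRXN1 in control replicates 1 (0.49) and 2 (-0.32) and HMOX1 in ITGB4 siRNA replicate 1 (0.26), and no row changes colour at the line between the groups in all 6 libraries.

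By the root mean square difference of centred log2 values over the 6 libraries, the profiles most like that of NFE2L2 among 4441 other protein-coding genes with at least 10 FPKM were those of RPS27A (0.0107), RPL24 (0.0136) and PAPSS1 (0.014). RPS27A and RPL24 encode ribosomal proteins and PAPSS1 an enzyme that makes the sulfate donor PAPS. NFE2L2 itself deviated from its own mean by 0.0584 on this measure. Its pathway partners ranked further down, with NQO1 at place 345, TXNRD1 at 403, GCLM at 1091 and KEAP1 at 3528. The measure also grows with the size of a gene's own deviations. These places therefore do not show whether the partners rise and fall with NFE2L2. GCLC, HMOX1, SRXN1 and SLC7A11 averaged under 10 FPKM and were not ranked. For TXNRD1 the closest were CYBRD1 (0.013), MAL2 (0.0154) and LRCH1 (0.0156), which like it were lowest in ITGB4 siRNA replicate 1.

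The wider pathway was described by 103 genes in 7 lists, of which 86 passed the filter on low values. Limma called 0 of the 86 higher and 0 lower, and limma-voom called 0. At an unadjusted p under 0.05 there were 5 higher and 1 lower, beside the 5.83% of all genes. Of the 86, 47 lay below 0 and 39 above, with a median log2 fold change of -0.01, and the groups were apart in 14 of the 86, beside 11.1% of all genes tested.

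The 19 tested regulators and partners of NRF2 had 14 log2 fold changes below 0 and 5 above, with a median of -0.06. NFE2L1, a related CNC factor that controls proteasome genes, had the smallest p of the list. Its libraries held 33.5, 29.7 and 31.4 FPKM in the controls and 37.2, 34.2 and 35.7 after ITGB4 siRNA, which do not overlap (log2 fold change 0.17, 95% interval 0.04 to 0.31, limma adjusted p = 0.761). RBX1, the RING subunit of the KEAP1-CUL3 ligase, was the 1 gene of the lists below 0 at an unadjusted p under 0.05, at 13.1 ± 0.771 and 11.6 ± 0.428 FPKM (SD, n = 3 each; -0.16, limma adjusted p = 0.806). It was singled out after its values were seen. SQSTM1, the autophagy receptor p62 that competes for KEAP1, was the most abundant at 68.6 ± 7.15 and 64.1 ± 2.43 FPKM (-0.09). BACH2 was below the filter.

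Among 16 tested genes of the thioredoxin and peroxiredoxin system there were 9 above 0 and 7 below (median 0.01). PRDX4, the peroxiredoxin of the endoplasmic reticulum, had the smallest p of all 86 genes. Its libraries held 29.9, 29.8 and 30.4 FPKM in the controls and 36.1, 37.7 and 35.95 after ITGB4 siRNA, a gap wider than the spread of either group. The log2 fold change was 0.28 (SE 0.0409, 95% interval 0.18 to 0.37), with an exact permutation p of 0.1, and it failed the adjustment over the 12871 genes (limma adjusted p = 0.148, limma-voom adjusted p = 0.122). Leaving out 1 library kept it between 0.26 and 0.29. TXNIP, the inhibitor of thioredoxin, was at 5.15 ± 0.432 and 6.43 ± 0.58 FPKM (0.27), and TXNRD3 at 3.08 ± 0.234 and 3.77 ± 0.116 (0.23; SD, n = 3 each, limma adjusted p = 0.687 for both); these 2 genes were named after their values were seen. TXN, thioredoxin itself, was at 305 ± 19.6 and 297 ± 27.1 FPKM (-0.04), and its sign turned without control replicate 2 or ITGB4 siRNA replicate 1.

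The 10 genes of NADPH supply, all tested, lay 6 above and 4 below 0 (median 0.01). ME1, the cytosolic malic enzyme and a known NRF2 target, had 12.97, 12.95 and 12.1 FPKM in the controls and 14.8, 14.8 and 15.98 after ITGB4 siRNA. These groups did not overlap, and the log2 fold change of 0.24 (95% interval 0.12 to 0.37) failed the same adjustment (limma adjusted p = 0.461). TALDO1, transaldolase of the pentose phosphate pathway, was the most abundant at 82.3 ± 3.11 and 83.3 ± 2.14 FPKM (SD, n = 3 each; 0.02).

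For glutathione synthesis and use, 16 of 23 genes were tested, 8 on each side of 0, with a median of 0.00. GGCT, which frees 5-oxoproline from γ-glutamyl peptides, was at 28.3 ± 1.67 and 26.1 ± 0.893 FPKM (-0.11), and GSTP1, the most abundant, at 121 ± 12.9 and 118 ± 3.64 (-0.03). Haem and iron handling had 8 tested genes, 6 above 0 and 2 below (median 0.02), with FTL, ferritin light chain, at 1562 ± 1.17 and 1544 ± 49.0 FPKM (-0.02) and the haem transporter SLC48A1 at 37.3 ± 1.78 and 35.3 ± 0.792 (-0.07). Of 19 aldo-keto reductases and other detoxifying enzymes 13 were tested, 9 below 0 and 4 above (median -0.02), with AKR1A1 at 12.3 ± 0.903 and 11.3 ± 0.205 FPKM (-0.11) and EPHX1, microsomal epoxide hydrolase, at 27.8 ± 1.47 and 27.2 ± 1.56 (-0.03). OSGIN1, an oxidative stress-induced growth inhibitor named after its values were seen, had the lowest log2 fold change of the 86 genes (-0.22, 95% interval -0.67 to 0.23), with overlapping groups at 6.28 ± 1.1 and 5.34 ± 1.68 FPKM and replicate 1 the highest in both. AKR1B10, AKR1C1, AKR1C2 and AKR1C3, known NRF2 targets, were below the filter, and the highest value among them was 0.356 FPKM, of AKR1C2. Paralogs of the AKR1C and GSTM families share near-identical sequence, so their low values are uncertain. The general antioxidant enzymes SOD1 (96.1 ± 1.28 and 97.96 ± 5.85 FPKM, 0.03) and SOD2 (3.64 ± 0.334 and 3.41 ± 0.185, -0.07) belonged to a list of 4 with a median of -0.03. All values in this paragraph are means ± SD of 3 libraries, control siRNA before ITGB4 siRNA, and the limma adjusted p of each named gene was at least 0.938.

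**Figure D4:**
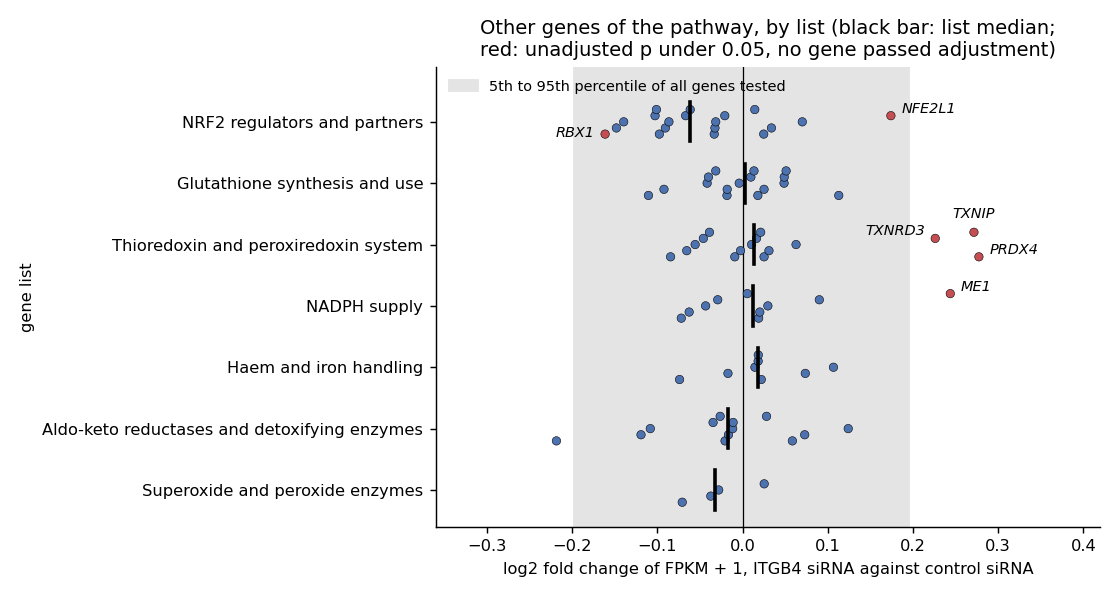
Log2 fold change of FPKM + 1 (x axis, ITGB4 siRNA against control siRNA) of the 86 tested pathway genes outside the 9, by list (y axis), with 1 point per gene, the list median as a black bar and genes at an unadjusted p under 0.05 in red. No gene passed the adjustment over all genes, and PRDX4 (0.28), TXNIP (0.27), ME1 (0.24) and TXNRD3 (0.23) lie above the 95th percentile of all genes tested and OSGIN1 (-0.22) below the 5th (grey, -0.20 to 0.20).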

How the data were processed

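The deposited table gives FPKM per gene and library, computed by the authors on GRCh38. DESeq2 and edgeR appear in the submitters' processing notes with no role given, and the aligner and counter are not given in the sources used here. Multiplied by gene length, 100% of the authors' FPKM values were whole multiples of 1 read at a tolerance of 0.01, which gave the recovered reads. No 2 libraries of a group agreed within sampling noise. Log2(FPKM + 1) was fitted with limma 3.58.1 (trend, R 4.3.3) over the 12871 genes that averaged 1 FPKM or more, with Benjamini-Hochberg adjustment over all of them. Exact permutation tests compared the mean FPKM of single genes and the mean ratios of NFE2L2 to KEAP1 and of GCLM to GCLC. All tests were two-sided. The fit was checked on simulated data with 200 changed genes. It found 21% of 1.25-fold, 67.6% of 1.5-fold and 88.4% of 2-fold changes, so small changes can be missed. The simulated noise was independent between libraries, with no replicate effect. In the data only 6 genes were called, and with fewer calls the adjustment is stricter. These shares can therefore overstate what the fit could find here. The 9 genes, the lists and the tests were chosen with earlier results of these data known. Named were the 9 genes, ITGB4, the gene with the smallest p and the most abundant gene of each list, the 3 closest profiles to NFE2L2 and to the gene with the smallest p, and genes that overlap one of the 9 on the opposite strand. Same-strand overlapping genes, BACH2, the AKR1B10 and AKR1C genes, RBX1, TXNIP, TXNRD3 and OSGIN1 were named outside this rule, after their values were seen. Groups came from the sample titles. Figures were drawn with matplotlib 3.10.9 in Python 3.11.15. Other pseudocounts, filters, scalings, limma-voom, a replicate block and leaving out libraries were tried.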

Additional observations from a re-analysis of the deposited data

How the results depend on the processing

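None of the 9 genes was called in any alternative, and none of the 86 pathway genes. For the 9 genes, 128 of 134 alternative values kept the direction and 6 turned sign, 5 of them on leaving out 1 library. The number of genes called over the whole table was 6, and it was 26 by limma-voom, 0 without the filter on low values, 0 with the replicate block (1064 at an unadjusted p under 0.05) and 0 without replicate 1 of both groups (1060 at an unadjusted p under 0.05; fewer samples, chosen after seeing the data). Without the filter more genes are tested, and the block leaves fewer residual degrees of freedom. Whether this lowered the counts was not tested, nor was the cause of the higher count by limma-voom. Leaving out 1 library gave 0 to 7 genes. ITGB4 stayed at -0.81 with an adjusted p of 0.0618 without the filter and 0.0564 with the block, and it was -0.80 (0.0776) without replicate 1 of both groups.

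On leaving out 1 library the log2 fold change ran from -0.09 to 0.03 for GCLM, -0.08 to 0.11 for HMOX1, -0.01 to 0.12 for KEAP1 and -0.39 to 0.02 for SRXN1, the 4 of the 9 genes whose sign turned. The other 5 kept their sign, at -0.09 to -0.00 for NFE2L2, 0.00 to 0.06 for GCLC, -0.05 to -0.01 for NQO1, 0.05 to 0.12 for SLC7A11 and -0.17 to -0.09 for TXNRD1. Among the named pathway genes whose sign turned it ran from -0.07 to 0.01 for EPHX1, -0.04 to 0.01 for FTL, -0.09 to 0.05 for GSTP1, -0.02 to 0.06 for SOD1, -0.01 to 0.04 for TALDO1 and -0.10 to 0.03 for TXN. Without replicate 1 of both groups HMOX1 was at -0.05 and GSTP1 at 0.04. The replicate numbers were not taken as pairs in the main fit. Same-numbered libraries had correlations of 0.173, 0.102 and -0.01 between their deviations from the group means. Numbers 1 and 2 matched their own number best, and number 3 did not. Any difference shared by same-numbered libraries therefore stays in the residuals of the main fit. At an unadjusted p under 0.05 limma gave 750 genes in the main fit and 1064 with the replicate block. The block changed no call among the 9 genes. Other scalings moved the median of all genes by under 0.01. SRXN1, HMOX1 and SLC7A11 rest on 163 to 330 reads per library, and the other 6 genes on more.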
